A study of Mus musculus with 14 samples.

Results

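The genes described here are 6 genes of thyroid hormone handling in mouse liver: the plasma carriers Serpina7 and Ttr, the deiodinase Dio1, the nuclear receptors Thra and Thrb, and the membrane transporter Slc16a10. They were taken by name from the authors' deposited 5-week table, where all 6 were measured among 12871 named genes. The set was selected on the knockout and control log2 means of that table, so the values of these 6 genes in that contrast are given as a description, with no test.

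Thyroid hormone travels in plasma bound to proteins that hepatocytes secrete, chiefly thyroxine-binding globulin, transthyretin and albumin. Membrane transporters carry it into cells, and the liver's type I deiodinase, a selenoenzyme, removes iodine from thyroxine to form the active hormone triiodothyronine or to inactivate it. The active hormone binds the receptors alpha and beta, which act on DNA together with retinoid X receptors. The beta receptor is the main form in hepatocytes.

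Total RNA came from livers of male mice of a C57/BL6J background (the labels write 57/BL6J), and knockout of miR-122, a microRNA highly abundant in hepatocytes, was compared with controls. The 5-week knockout group held 2 livers with the genotype miR-122loxP/loxP Alb-Cre, in which the albumin promoter drives Cre recombinase in hepatocytes. The 5-week control group held 2 livers with miR-122loxP/loxP alleles, which their titles call wild type. The genotypes thus name a hepatocyte Cre, whereas germ-line is the word for these 5-week mice in the series' design. The controls list no Cre, so the loss of miR-122 and the presence of Cre cannot be told apart. The deletion itself was not checked, as no probe set used here carried the name of the microRNA. Livers are called RNA1 and RNA2 after their titles. The labels do not say that they came from separate mice, so p-values measure only the spread between these samples, which may be technical. The 10 samples from 8 weeks of age were not analysed here, because no table used here pairs their probe sets with genes.

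All levels are RMA log2 signals, in which 1 unit is a doubling, and the small number of arrays limits their precision. With limma, 1394 of the 12871 genes were higher in the knockout and 534 lower. A call means an adjusted p below 0.05, with the Benjamini-Hochberg adjustment made across every named gene. By direction, 72.3% of the 1928 calls were higher. That share was 55.9% when each array was re-centred on its median and 61.2% after a new quantile normalization. All 4 livers had signal for the Y-linked genes Ddx3y (8.40 and 8.28 in knockout, 8.23 and 8.63 in control) and Eif2s3y (8.47 and 8.32 in knockout, 8.48 and 8.77 in control). Among hepatocyte markers other than Ttr, 0 of 15 passed with limma, with 1 at an unadjusted p under 0.05. Their summed linear signal was 108721 to 114500 in knockout livers and 114702 to 118995 in control livers. Kupffer cell and monocyte markers were higher in 11 of 13 genes, with summed signals of 10954 to 12596 in knockout and 5542 to 6005 in control livers. Stellate cell and fibroblast markers were higher in 6 of 10 (7649 to 7760 in knockout, 4600 to 5698 in control), and cholangiocyte markers in 5 of 7 (2940 to 3328 in knockout, 669 to 807 in control). Most of the cholangiocyte sum in knockout livers came from Spp1, at 11.11 and 11.28 in knockout and 7.81 and 8.11 in control. The cholangiocyte keratin genes Krt7 and Krt19 did not pass, with log2 differences of 0.10 and -0.315. Krt19 read 6.18 and 6.46 in the knockout livers, against 6.04 in control RNA1 and 7.23 in control RNA2, so its groups overlapped. Neutrophil markers were higher in 3 of 4 measured genes (296 to 434 in knockout, 169 to 192 in control), and lymphocyte and NK cell markers in 2 of 6 (516 to 612 in knockout, 405 to 412 in control). The part of these cell types in the values below was not tested. In whole liver, fewer cells of a type and less RNA per cell cannot be told apart.

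Of the 6 genes, 1 was higher in both knockout livers than in both control livers (Serpina7), 2 were lower in both (Dio1 and Thrb), and 3 had overlapping groups (Ttr, Thra and Slc16a10). Over all genes, 32.1% were higher in both knockout livers and 27.0% lower in both, together 59.1%. The median log2 difference of the 6 genes, knockout minus control, was -0.055, against 0.005 over all genes with quartiles of -0.16 and 0.225.

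**Figure D1:**
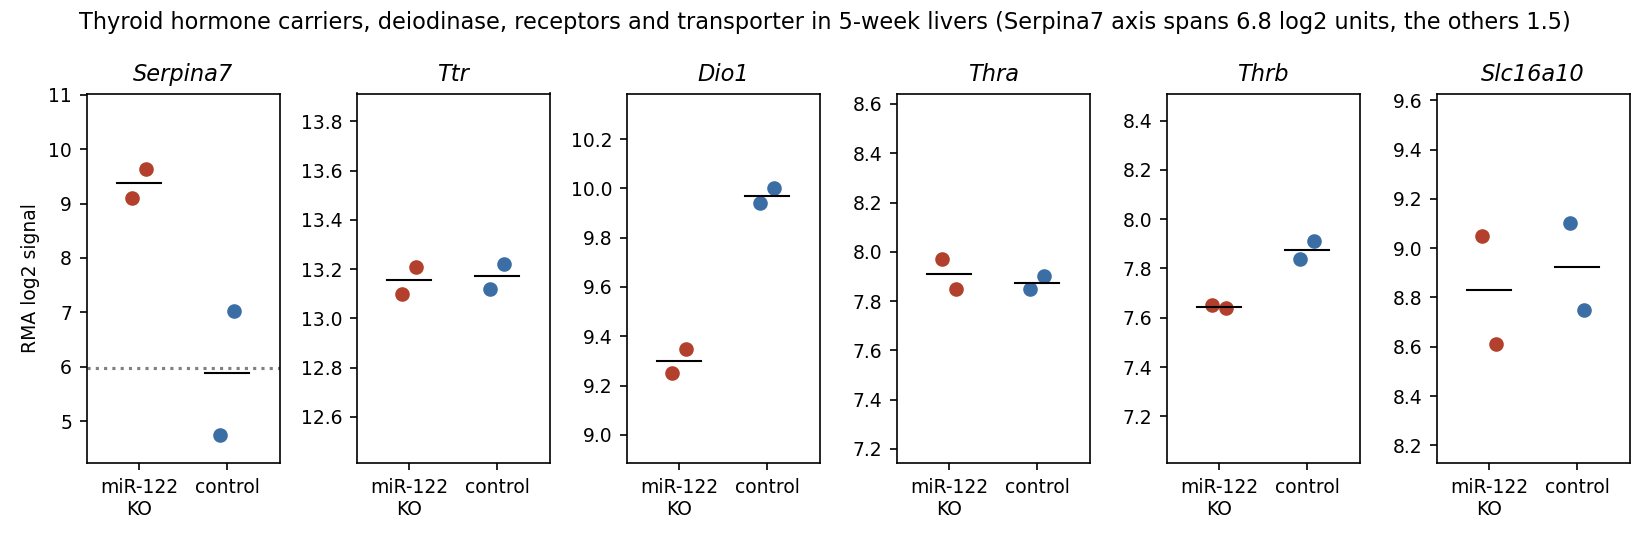
RMA log2 signal (y axes) of the 6 genes in the 2 knockout livers (red, left) and 2 control livers (blue, right) at 5 weeks; points are livers, lines are group means, and the dotted line in the Serpina7 panel is the median of olfactory receptor genes. The Serpina7 axis spans a wider range than the others. Knockout livers lie above controls for Serpina7 and below them for Dio1 and Thrb, and the groups overlap for the other genes.

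Serpina7 encodes thyroxine-binding globulin, the plasma carrier with the highest affinity for thyroxine in humans; in the rat, the liver makes much of it after birth and little in adult life. Its probe set read 9.10 and 9.64 in the knockout livers, against 4.74 and 7.02 in the control livers. Both knockout livers lay above both controls, and the livers of each genotype differed from each other, the controls more widely. Group means were 9.37 ± 0.38 in knockout and 5.88 ± 1.61 in control livers (SD, n = 2 each), a log2 difference of 3.49 or 11.2-fold. The nearest pair of livers, knockout RNA1 and control RNA2, still differed by 2.08 log2 units, or 4.23-fold.

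The size of that difference rests on which control liver is used. Against control RNA2 alone the knockout mean was 2.35 log2 units higher, or 5.10-fold, and against control RNA1 alone 4.63 units higher, or 24.8-fold. RNA1, at 4.74, lay below 5.98, the median of 41 olfactory receptor genes that liver is not known to use, while RNA2, at 7.02, lay above it. The gene means of those receptors ran from 5.52 to 8.14. Only receptors among the named genes were counted, and in every probe set of those the higher group mean was at least 4.94. Receptors that read lower may thus be missing, and the median and range may lie above background. Control RNA1 thus read below that range and control RNA2 within it, and a difference against such levels is uncertain in size. Thra and Thrb also read within that range in all 4 livers, so the same limit holds for the size of their differences. All 6 genes passed a filter at that median on the mean over all livers, Serpina7 through its knockout level, since its control mean of 5.88 was under it.

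**Figure D2:**
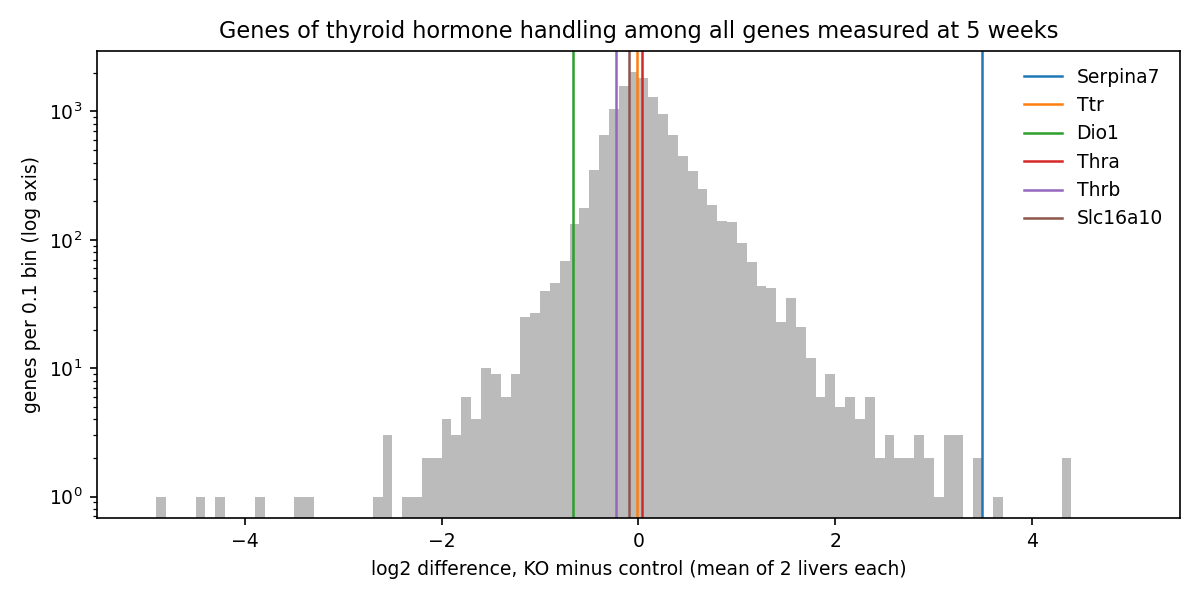
Histogram of the log2 difference between group means (x axis, knockout minus control) over all 12871 genes, with the count of genes in each bin on a log y axis; coloured lines mark the 6 genes. Serpina7, at 3.49, lies in the far right tail, Dio1, at -0.67, on the left flank, and the other genes in the centre.

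Serpina7 differed more between the 2 control livers than nearly any other gene. The control gap of Serpina7 was 2.28 log2 units, and 16 other genes had a gap at least as large, 0.124% of all others. Its gap between the knockout livers was 0.54, and 257 other genes, 2.0%, had one at least as large. Over all genes, the standard deviation of the gap was 0.208 between knockout livers and 0.293 between control livers. Some of the 16 genes are known for sex-biased expression in mouse liver, and they were chosen for mention after their values were seen. The female-biased Cyp2b9, a cytochrome P450, read 12.08 and 11.89 in knockout RNA1 and RNA2, against 5.33 and 12.35 in control RNA1 and RNA2. Cyp2b13, of the same family and also female-biased, read 8.52 and 6.77 in the knockout livers, against 4.26 and 8.06 in the control livers. In both genes control RNA1 was the low liver. The male-biased steroid dehydrogenase gene Hsd3b5 read 3.52 and 4.12 in the knockout livers, against 9.87 and 6.62 in the control livers. The male-biased oxysterol hydroxylase gene Cyp7b1 read 8.35 and 8.07 in the knockout livers, against 11.30 and 8.48 in the control livers. For these 4 genes control RNA2 lay nearer to the knockout mean than control RNA1 did, as it also did for Serpina7. It held for 8 of all 16 genes, these 4 included, and not for the other 8. Whether these genes and Serpina7 share a source of that spread was not tested. The other members had control gaps of 0.05 to 0.35 in size.

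**Figure D3:**
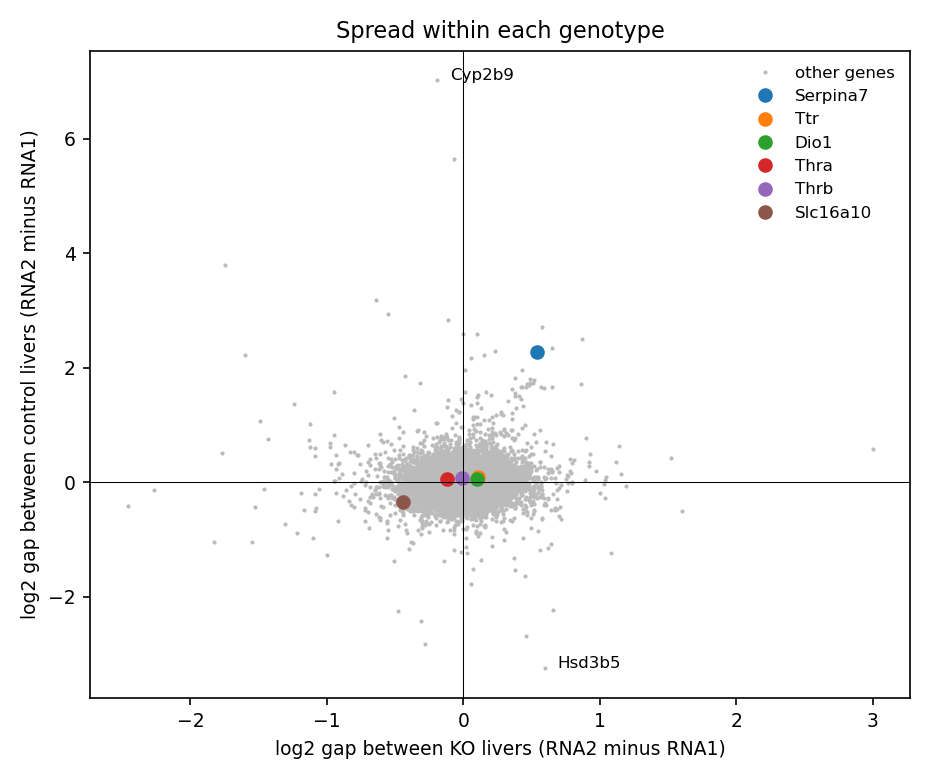
Log2 gap between livers RNA2 and RNA1 of one genotype for every gene, for knockout livers (x axis) and control livers (y axis); coloured points are the 6 genes and grey points all others. Serpina7 stands at 0.54 and 2.28, outside the cloud that holds the other 5 genes, and Cyp2b9 and Hsd3b5 lie at both ends of the control axis.

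Serpina7 lies on chromosome X and Dio1 on chromosome 4. The sequences before their starts are shown because these genes had the largest differences of the set in each direction. They are RefSeq sequences of GRCm38.p6, 250 bases before to 50 bases after the annotated start, for Serpina7 at chrX:139085187-139085486 and for Dio1 at chr4:107307119-107307418, both on the minus strand. Capitals mark GTTAAT, one arm of the palindromic site of the hepatocyte factor HNF1, and TATAAA, the TATA box; AGGTCA, the element whose repeats thyroid hormone receptors bind, was searched as well, each on both strands.
Serpina7: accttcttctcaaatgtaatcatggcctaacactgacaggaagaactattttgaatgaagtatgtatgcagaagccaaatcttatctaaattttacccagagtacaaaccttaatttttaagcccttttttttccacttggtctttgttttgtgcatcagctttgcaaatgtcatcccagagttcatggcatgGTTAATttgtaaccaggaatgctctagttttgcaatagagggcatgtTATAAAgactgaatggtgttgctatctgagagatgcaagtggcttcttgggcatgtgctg
Dio1: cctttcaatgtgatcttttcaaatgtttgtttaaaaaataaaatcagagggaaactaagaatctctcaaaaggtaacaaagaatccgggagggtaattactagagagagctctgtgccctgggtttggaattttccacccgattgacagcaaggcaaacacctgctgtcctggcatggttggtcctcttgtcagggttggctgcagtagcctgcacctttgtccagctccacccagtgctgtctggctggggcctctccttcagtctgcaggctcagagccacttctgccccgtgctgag
In the Serpina7 window, GTTAAT began 57 bases and TATAAA 10 bases before the first of 2 annotated starts, and 74 and 27 bases before the second start. The Dio1 window held none of the 3 motifs. Among 32851 promoter windows of the same length in the table, 7.1% held GTTAAT, 13.6% TATAAA and 16.3% AGGTCA. Of the other members with an entry, Thrb held AGGTCA 184 bases and GTTAAT, on the opposite strand, 44 bases before 1 of its 2 starts, with TATAAA 167 bases before the other, and Slc16a10 held GTTAAT 232 bases before its start. These are matches of letters, and binding was not measured.

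Ttr encodes transthyretin, the other specific carrier of thyroxine in plasma and a carrier of the retinol-binding protein. It read 13.10 and 13.21 in the knockout livers, against 13.12 and 13.22 in the control livers. The groups overlapped almost completely, with a log2 difference of -0.015. A list of other plasma carriers held 12 measured genes, among them Fabp1, which binds fatty acids inside cells. With limma, 1 of the 12 was higher in the knockout and none lower, and their median log2 difference was 0.04. The riser was the fetal carrier alpha-fetoprotein, Afp, at 8.70 and 9.02 in the knockout livers, against 5.43 and 5.73 in the control livers (log2 difference 3.28 ± 0.16 SE, adjusted p = 0.0013). Both Afp control values lay below the olfactory receptor median of 5.98, so that fold is uncertain too. Albumin, Alb, which carries thyroid hormone at low affinity, read 13.66 and 13.68 in the knockout livers, against 13.65 and 13.71 in the control livers (adjusted p = 0.964). The lipid-binding Apoh had a log2 difference of -0.32 (adjusted p = 0.0922) and passed as lower with re-centring and with an intensity trend and robust prior, while the copper carrier Cp had one of 0.17 (adjusted p = 0.323).

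Serpina7 belongs to the clade A serpins, most of which inhibit proteases, while thyroxine-binding globulin binds hormone instead. Of 14 other measured clade A serpins, 1 was higher in the knockout and 1 lower, with a median log2 difference of 0.03. Serpina1d, an alpha-1-antitrypsin gene, read 11.69 and 10.52 in the knockout livers, against 9.74 and 9.25 in the control livers (log2 difference 1.61 ± 0.38 SE, adjusted p = 0.0383). Its call was lost with array weights and with an intensity trend and robust prior. Serpina3c read 6.91 and 6.57 in the knockout livers, against 7.26 and 7.50 in the control livers (-0.64 ± 0.16 SE, adjusted p = 0.043). Probe sets of the near-identical Serpina1 and Serpina3 paralogs may share signal, so which paralog these values belong to is uncertain. The Serpina3c values of all 4 livers also lay within the olfactory receptor range of 5.52 to 8.14, so that size is uncertain. Serpina4-ps1, a pseudogene by its symbol, had a log2 difference of -2.55 without passing (adjusted p = 0.108). It read 5.48 and 8.48 in the knockout livers, against 9.24 and 9.82 in the control livers. Its value in knockout RNA1 lay below that olfactory receptor range, so the size of its difference is uncertain too. Serpina11 had a log2 difference of -0.72 (adjusted p = 0.0524). It passed as lower with re-centring, with a new quantile normalization, with low genes left out, and with an intensity trend and robust prior. Serpina6, which encodes the corticosteroid carrier of plasma, had a log2 difference of 0.13 (adjusted p = 0.724).

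Dio1, the type I deiodinase, read 9.25 and 9.35 in the knockout livers, against 9.94 and 10 in the control livers. The livers of each genotype were close together and the groups lay apart. Means were 9.30 ± 0.07 in knockout and 9.97 ± 0.04 in control livers (SD, n = 2 each), a log2 difference of -0.67, or 1.59 times lower in the knockout. The nearest livers of the groups differed by 0.59 log2 units. Of the 12871 genes, 302 had a lower difference than Dio1. Leaving out any 1 liver kept the difference between -0.72 and -0.62.

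In a list of 14 other measured genes that bind, conjugate or salvage thyroid hormone or help to build selenoenzymes, none was higher in the knockout and 3 were lower with limma, with a median log2 difference of -0.09. Over all genes, 10.8% were called higher and 4.15% lower. Sult1b1, a sulfotransferase that conjugates thyroid hormone, read 6.89 and 6.57 in the knockout livers, against 7.74 and 7.63 in the control livers (log2 difference -0.955 ± 0.14 SE, adjusted p = 0.0101). Its values in all 4 livers lay within the olfactory receptor range of 5.52 to 8.14, so that size is uncertain. The glucuronosyltransferase gene Ugt2b1 read 11.03 and 11.07 in the knockout livers, against 12.05 and 11.77 in the control livers (-0.86 ± 0.13 SE, adjusted p = 0.011). Sepsecs, which makes the selenocysteine that deiodinases carry, read 8.28 and 8.12 in the knockout livers, against 8.60 and 8.71 in the control livers (-0.455 ± 0.12 SE, adjusted p = 0.0484). With array weights, Sepsecs no longer passed. The sulfotransferase gene Sult1a1 had a log2 difference of -0.39 (adjusted p = 0.171), and Crym, a cytosolic binder of triiodothyronine, one of 0.30 (adjusted p = 0.148). Iyd, which recovers iodide from iodotyrosines, differed by 0.07 (adjusted p = 0.699). The other deiodinase genes, Dio2 and Dio3, had no row among the named genes.

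The receptor gene Thrb read 7.65 and 7.64 in the knockout livers, against 7.84 and 7.91 in the control livers. Both knockout values lay below both control values, by 0.19 log2 units at the nearest. Means were 7.645 ± 0.0071 in knockout and 7.875 ± 0.049 in control livers (SD, n = 2 each), a log2 difference of -0.23, or 1.17 times lower in the knockout. By that difference, 2259 of the 12871 genes were lower than Thrb.

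Thra, the alpha receptor gene, read 7.97 and 7.85 in the knockout livers, against 7.85 and 7.90 in the control livers. The groups overlapped, and the log2 difference of 0.035 turned to -0.05 when arrays were re-centred on their medians and to -0.04 after a new quantile normalization. Nr1d1, a circadian repressor gene, overlaps Thra in the RefSeq annotation; its own probe set read 10.85 and 10.63 in the knockout livers, against 10.97 and 10.59 in the control livers (adjusted p = 0.899).

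None of 19 measured partners and cofactors of the receptors passed with limma, with 3 at an unadjusted p under 0.05 and a median log2 difference of 0.06. Tbl1xr1, a subunit of the corepressor complex, came nearest, at 9.20 and 9.12 in the knockout livers against 8.63 and 8.82 in the control livers (log2 difference 0.435 ± 0.12 SE, adjusted p = 0.0572). It passed with an intensity trend and robust prior. Rxrg, a retinoid X receptor gene, had a log2 difference of -0.395 (adjusted p = 0.125), and Rxra, the main one in liver, -0.19 (adjusted p = 0.408).

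Of 20 other measured genes reported to rise with thyroid hormone in rodent liver, 2 were higher in the knockout and none lower, with a median log2 difference of -0.09. The 6 genes of the set were not counted in this list, among them Dio1, at a log2 difference of -0.67. Ucp2, a mitochondrial carrier known in liver for its presence in macrophages, read 10.95 and 10.78 in the knockout livers, against 9.14 and 9.03 in the control livers (log2 difference 1.78 ± 0.12 SE, adjusted p = 0.00151). The macrophage markers given above were also higher in the knockout, and their part in the value of Ucp2 was not tested. Me1, the cytosolic malic enzyme, read 10.02 and 10.24 in the knockout livers, against 9.60 and 9.48 in the control livers (0.59 ± 0.12 SE, adjusted p = 0.0274). Among those that did not pass, the ketone body transporter gene Slc16a6 had a log2 difference of 0.565 (adjusted p = 0.0721; it passed with an intensity trend and robust prior) and the fatty acid synthase gene Fasn one of -0.535 (adjusted p = 0.267). Thrsp, the lipogenic gene first described for its response to thyroid hormone, read 6.48 and 6.93 in the knockout livers, against 6.70 and 7.70 in the control livers (adjusted p = 0.368). Klf9, a receptor target in liver, had a log2 difference of -0.18 (adjusted p = 0.329). Thrsp and Klf9 were named after their values were seen, for their standing as targets.

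Slc16a10 encodes an aromatic amino acid carrier that also moves thyroid hormone. It read 9.05 and 8.61 in the knockout livers, against 9.10 and 8.75 in the control livers. The spread within each genotype, 0.44 in knockout and 0.35 in control livers, exceeded the log2 difference of -0.095 between the means. Leaving out 1 liver at a time gave differences from -0.315 to 0.125, so no direction was stable.

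Among 10 other measured transporters that have been reported to carry thyroid hormone, 2 were higher in the knockout and 2 lower, with a median log2 difference of -0.04. Slco1a1, an organic anion transporter of hepatocytes, read 6.63 and 7.25 in the knockout livers, against 10.44 and 10.16 in the control livers (log2 difference -3.36 ± 0.22 SE, adjusted p = 0.00151). Both knockout values lay within the olfactory receptor range of 5.52 to 8.14, so that size is uncertain. Slco2b1, of the same family as Slco1a1, read 8.34 and 8.47 in the knockout livers, against 9.19 and 9.13 in the control livers (-0.755 ± 0.11 SE, adjusted p = 0.00985). The neutral amino acid transporter gene Slc7a8 read 7.62 and 7.55 in the knockout livers, against 6.70 and 6.65 in the control livers (0.91 ± 0.10 SE, adjusted p = 0.00515). Its values in all 4 livers lay within the olfactory receptor range, so its size is uncertain too. Slc17a4, an organic anion transporter reported for thyroid hormone in humans, read 9.25 and 9.45 in the knockout livers, against 8.59 and 8.65 in the control livers (0.73 ± 0.12 SE, adjusted p = 0.0127). Slco1a4 had a log2 difference of -0.99 (adjusted p = 0.271), with knockout values of 9.31 and 7.54 against control values of 9.16 and 9.67. Slc3a2, the heavy chain that pairs with Slc7a8, had one of 0.39 (adjusted p = 0.0536). It passed as higher with a new quantile normalization, with low genes left out, and with an intensity trend and robust prior.

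Each gene counted once, the lists held 86 measured genes, of which 6 were higher in the knockout and 6 lower. These calls were 14.0% of the listed genes, against 15.0% called among all genes. The calls depend on having all 4 livers: with any 1 liver left out, limma called no gene at all, listed or not, with 2267 to 3490 of all genes at an unadjusted p under 0.05.

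**Figure D4:**
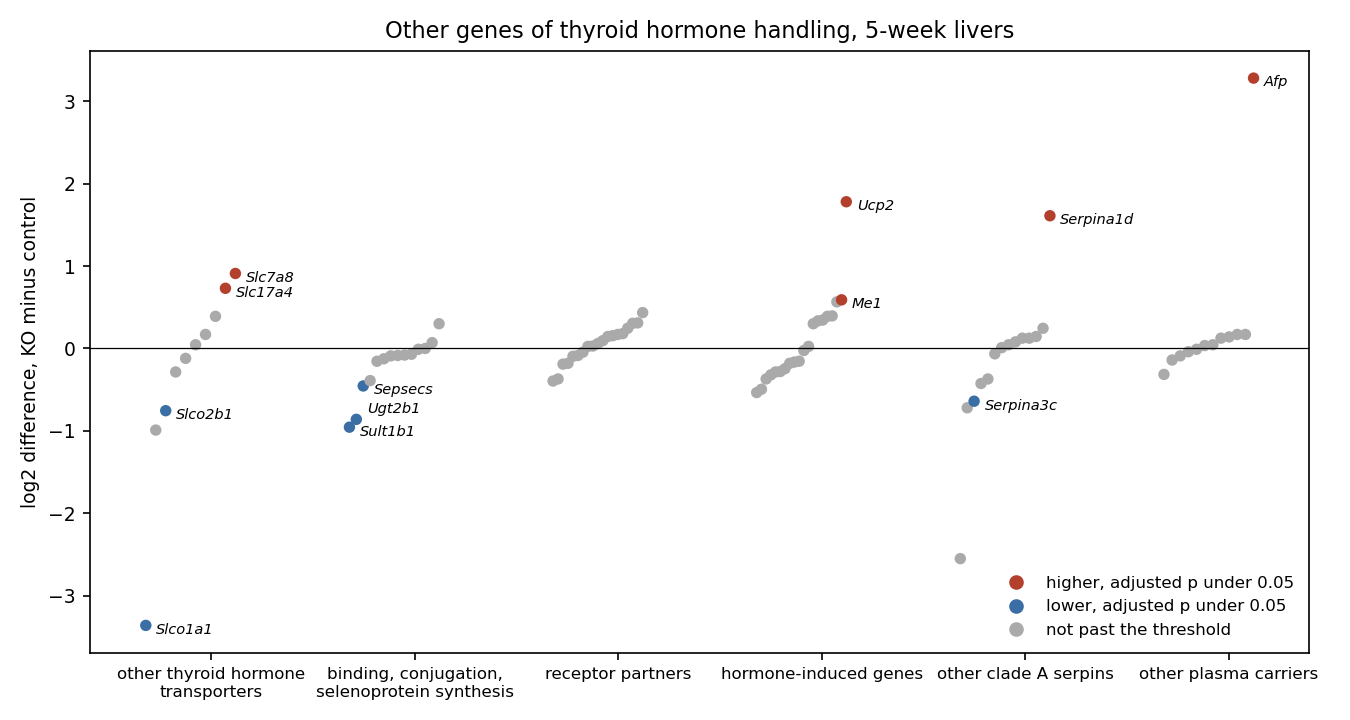
Log2 difference between group means (y axis, knockout minus control) of the genes in each list, ordered by value within a list along the x axis; red and blue points passed an adjusted p under 0.05 in limma as higher or lower in the knockout, and grey points did not. Calls are spread over both directions, with Slco1a1 at -3.36 and Afp at 3.28 at the ends, and receptor partners hold none.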

How the data were processed

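Liver RNA was fragmented and biotinylated with an Affymetrix kit and measured on gene arrays, per the labels' protocols. The authors' deposited log2 values come from Affymetrix Expression Console and RMA, per the submitters' processing notes, without a version or genome build. The 5-week matrix holds a value for each liver, rounded to 2 decimals, and group means from it lay within 0.005 of the log2 means in the authors' deposited 5-week table. That table's fold column, a ratio of knockout over control by the authors, and its deposited p-value column were not used for any result. It also holds 4 columns of single arrays whose names match no sample label, which were not used. The table holds 14996 of the 35556 probe sets of the matrix, and in each of them the higher group mean was at least 4.94; how they were picked is not stated.

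Probe sets were named through RefSeq accessions of GRCm38.p6 (13056), symbols (987) or synonyms (485), 380 kept the table's name, and 88 with several symbols or none were left out. Of several probe sets of a gene, the one with the highest mean was kept. Differences were fitted with limma 3.58.1 (R 4.3.3) over all 12871 genes, tested on simulated data, and adjusted by Benjamini-Hochberg. As values are rounded, 7 genes had no variance within groups, which limma offsets. The members and lists were chosen with earlier results of these data known. At most 4 passing genes of each list with the smallest p and the 2 largest differences that did not pass are named, and Alb, Serpina6, Iyd, Rxra, Thrsp and Klf9 were added for their roles after their values were seen. Alternatives were the mean of a gene's probe sets, re-centring, quantile normalization, a filter at the median of 41 olfactory receptor genes (5.98), an intensity trend with robust prior, array weights, the replicate number as a block, and leaving out each liver. The tests planned for the 8-week samples, and the genes most like Serpina7 and Dio1 there, were not run, since the probe sets of that matrix could not be named.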

Additional observations from a re-analysis of the deposited data

How the results depend on the processing

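For the 6 thyroid genes, the authors' group means gave the same log2 differences. Re-centring arrays on their medians shifts all genes alike, and gave 3.405 for Serpina7, -0.1 for Ttr, -0.755 for Dio1, -0.05 for Thra, -0.315 for Thrb and -0.18 for Slc16a10. A new quantile normalization gave 3.37 for Serpina7, -0.035 for Ttr, -0.656 for Dio1, -0.04 for Thra, -0.311 for Thrb and -0.134 for Slc16a10. With 1 liver left out, log2 differences ranged from 2.35 to 4.63 for Serpina7, -0.07 to 0.04 for Ttr, -0.72 to -0.62 for Dio1, -0.025 to 0.095 for Thra, -0.265 to -0.195 for Thrb and -0.315 to 0.125 for Slc16a10. The count of calls over all genes was 1928, and the calls lower in the knockout numbered 878 with re-centring, against 534 without it. Replicate numbers pair no samples here: the deviations of same-numbered livers correlated at 0.043. With the replicate block, limma called 837 genes, 651 higher and 186 lower, and Me1, Sepsecs and Serpina3c lost their call. With any 1 liver left out, the calls over all genes, higher, lower and in the lists were 0, with 1 residual degree of freedom left per gene. In those fits the lone liver is assumed to vary like the other genotype. Among the named list genes, 11 comparisons with an alternative that kept all 4 livers gained a call and 6 lost one. With a liver left out, every call of these genes was lost. No comparison of either kind changed direction. No alternative could be run for the 8-week samples.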

Other observations

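Besides the sex-biased genes named above, the 16 genes whose control livers differed at least as much as for Serpina7 included 3 enzymes of cholesterol synthesis, chosen after their values were seen. Sqle, the squalene epoxidase gene, read 7.28 and 8.15 in knockout RNA1 and RNA2, against 6.53 and 9.03 in control RNA1 and RNA2. Cyp51 read 7.47 and 8.12 in the knockout livers, against 6.91 and 9.25 in the control livers, and Msmo1 read 7.96 and 8.54 in the knockout livers, against 7.78 and 10.49 in the control livers. Also among the 16, and chosen likewise, were Dmbt1, Muc3 and Slc26a3, high in control RNA2 alone. Dmbt1 read 5.88 and 5.81 in the knockout livers, against 5.17 and 10.81 in the control livers. Muc3 read 4.51 and 4.61 against 4.43 and 7.02, and Slc26a3 3.71 and 3.71 against 3.65 and 6.23. Control RNA1 lay below the olfactory receptor range for each, so these sizes are uncertain. Whether the mix of cells in control RNA2 had a part was not tested. Of the 16 genes, 12 were higher and 4 lower in control RNA2 than in control RNA1.

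The 2 nearest measured genes on each side of each thyroid gene in RefSeq order, 24 in all, included 1 that was higher in the knockout and 1 that was lower with limma. Over all genes, 10.8% were called higher and 4.15% lower, together 15.0%. B4galt6, a galactosyltransferase gene beside Ttr, read 6.88 and 6.72 in the knockout livers, against 5.60 and 5.58 in the control livers (log2 difference 1.21, adjusted p = 0.00306). Its values in all 4 livers lay within the olfactory receptor range of 5.52 to 8.14, so that size is uncertain. Mfsd4b1, a transporter gene beside Slc16a10, read 8.24 and 8.15 in the knockout livers, against 8.97 and 9.07 in the control livers (-0.825, adjusted p = 0.0076). The 4 neighbours of Serpina7 had log2 differences of -0.28 to 0.23, and none passed.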
